A study of Mus musculus with 4 samples.

Results

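Genes of the nuclear pore and of the receptors that carry cargo through it were examined in mouse GV oocytes, which are held in meiotic prophase with the germinal vesicle, their large nucleus, still intact. Members were taken by symbol: nucleoporins (Nup followed by a digit), importins (Kpna, Kpnb and Ipo), exportins (Xpo) and transportins (Tnpo), leaving out Xpo5 and pseudogene symbols. This gave 42 genes of the 53677 symbols in the files. The oocytes came from 2 groups, Ell3 knockdown oocytes (Ell3 KD) and control oocytes (Ctrl), with 2 libraries per group and 5 oocytes pooled in each library. Oocytes of both groups were collected 48 h after the females were given PMSG (7.5 IU), a hormone that drives follicle growth. Strain, age, the way the knockdown was made and whether libraries came from separate animals are not given in the sources used here, so the spread behind each p-value is that between libraries and may be technical. The submitters presented the comparison as a look at whether transcription bears on the meiotic outcome.

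Nuclear pores are ring-shaped channels in the nuclear envelope. A Y-shaped scaffold coats both faces, and an inner ring lines the pore at the membrane. Nucleoporins with phenylalanine-glycine repeats fill the channel and extend to the cytoplasmic face and the nuclear basket. Importin alpha binds cargo with a classical nuclear localisation signal and hands it to importin beta (Kpnb1), while other importins, transportins and exportins bind cargo directly. The GTPase Ran sets the direction, since Ran-GTP in the nucleus releases import cargo and is bound together with export cargo. In a GV oocyte these genes serve a nucleus whose envelope is about to break down, and after breakdown several nucleoporins and importin beta also act at kinetochores and on spindle assembly.

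The libraries held 89632815 and 65722415 counts in Ell3 KD and 45131278 and 48669267 in Ctrl, so depth did not overlap between the groups. Ell3, an RNA polymerase II elongation factor gene and the target, had 2.88 and 2.80 CPM (counts per 1e+06 scaled counts) in Ell3 KD against 8.12 and 9.79 CPM in Ctrl (log2 fold change -1.66 ± 0.14, SE; edgeR adjusted p = 6.04e-10). Serinc4 overlaps 65.6% of the Ell3 exons, which makes the Ell3 counts less certain. The oocyte markers Zp3 and Padi6 stood at 7403 and 4367 CPM in Ell3 KD and at 7425 and 4448 CPM in Ctrl, and neither was called. Of the 10 oocyte markers 2 were called higher and 4 lower, against 21.1% and 21.8% of all genes tested. Singled out after their values were seen, these were Dppa3 (log2 fold change 0.49) and Oosp1 (0.46) above Ctrl, and Nlrp5 (-0.23), Gdf9 (-0.20), Ddx4 (-0.18) and Zp1 (-0.12) below it. Summed over 10 granulosa and cumulus markers the level was 23.95 and 25.81 CPM in Ell3 KD and 25.1 and 23.9 CPM in Ctrl. Of the 6 markers tested 1 was called, against 42.9% of all genes tested. Cyp19a1 alone had 16.2 and 17.9 CPM of these sums in Ell3 KD and 18.7 and 17.2 CPM in Ctrl. The other granulosa genes given here were singled out after their values were seen. Inha, the gene called, had 2.18 and 2.48 CPM in Ell3 KD against 0.941 and 1.14 CPM in Ctrl, and Fst, not called, had 42 and 38 counts in Ell3 KD against 6 and 15 in Ctrl. Counts of Amh (9 and 5), Amhr2 (8 and 3) and Foxl2 (4 and 3) were found in Ell3 KD. Each had 0 in both Ctrl libraries, which were the shallower ones. Fshr, not called, went the other way, with 0.598 and 0.449 CPM in Ell3 KD against 0.897 and 1.01 CPM in Ctrl. So did Has2, not tested, with 2 and 2 counts in Ell3 KD against 7 and 3 in Ctrl. Whether granulosa RNA had a part in the differences of the members was not tested. Theca and stroma markers summed to 2.71 and 2.74 CPM in Ell3 KD against 3.85 and 3.89 CPM in Ctrl, with none of 3 tested called by edgeR at an adjusted p under 0.05. Of 6 blood markers, 4 had no count in any library, haemoglobin genes among them, and the sums were 1.37 and 1.21 CPM in Ell3 KD against 2.58 and 2.98 CPM in Ctrl.

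Most pore and receptor genes differed little between Ell3 KD and Ctrl. The dominant importin alpha genes Kpna2 and Kpna7 and the nucleoporin genes Nup98, Nup107, Nup214 and Nup88 did not pass the test. Other abundant nucleoporin genes did, by small amounts: Nup35, Nup54 and Nup43 were 1.16-, 1.08- and 1.13-fold higher, and Nup85 and Nup93 1.10- and 1.13-fold lower. Ipo8 rose 1.25-fold, whereas the exportin genes Xpo1 and Xpo6 were 1.32-fold lower each. The low-level genes Nup210 and Kpna1 differed by more, 1.83-fold and 2.41-fold lower. In all, 6 of 42 members rose (Ipo8, Tnpo1, Nup35, Nup43, Nup54, Nup153) and 12 fell (Nup62, Nup62cl, Nup85, Nup93, Nup210, Kpna1, Kpnb1, Ipo7, Ipo13, Xpo1, Xpo4, Xpo6), and 24 were not called. The test was edgeR's quasi-likelihood test over all genes, called at a Benjamini-Hochberg adjusted p under 0.05. It called 21.1% of all 17879 genes tested higher and 21.8% lower, or 42.9% in either direction. The 18 members called are thus as frequent as calls among all genes, and their number is not a result about these genes. Among genes at 5 CPM or more, 15 of 37 members were called, against 27.2% of 9704 genes called higher and 25.3% lower. All 42 members passed the filter on low counts. Counts are relative to all RNA of a library, and in pooled oocytes less RNA per cell and fewer cells holding a transcript cannot be told apart.

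Levels among the members ranged widely. Per kilobase of the longest annotated transcript, Kpna2 was the highest at 1018 CPM per kb in Ell3 KD and 1007 in Ctrl, and Nup210l, a relative of Nup210, was the lowest at 0.053 and 0.041. Subunits of one structure did not share one mRNA level. Averaged over the 4 libraries, the Y complex genes ran from 3.68 CPM per kb for Nup133 to 183.5 for Nup85, a ratio of 49.8. The inner ring genes ran from 1.48 CPM per kb for Nup205 to 164.8 for Nup35, a ratio of 111. The 4 exportin genes among the members lay closer together, between 1.29 for Xpo7 and 4.78 CPM per kb for Xpo6. Exportin genes outside the symbol rule lay beyond that range. Cse1l had 13.69 CPM per kb in Ell3 KD and 15.79 in Ctrl, and Xpot had 0.168 and 0.203. These levels use one transcript per gene, so a gene whose oocyte transcript is shorter is understated.

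**Figure D1:**
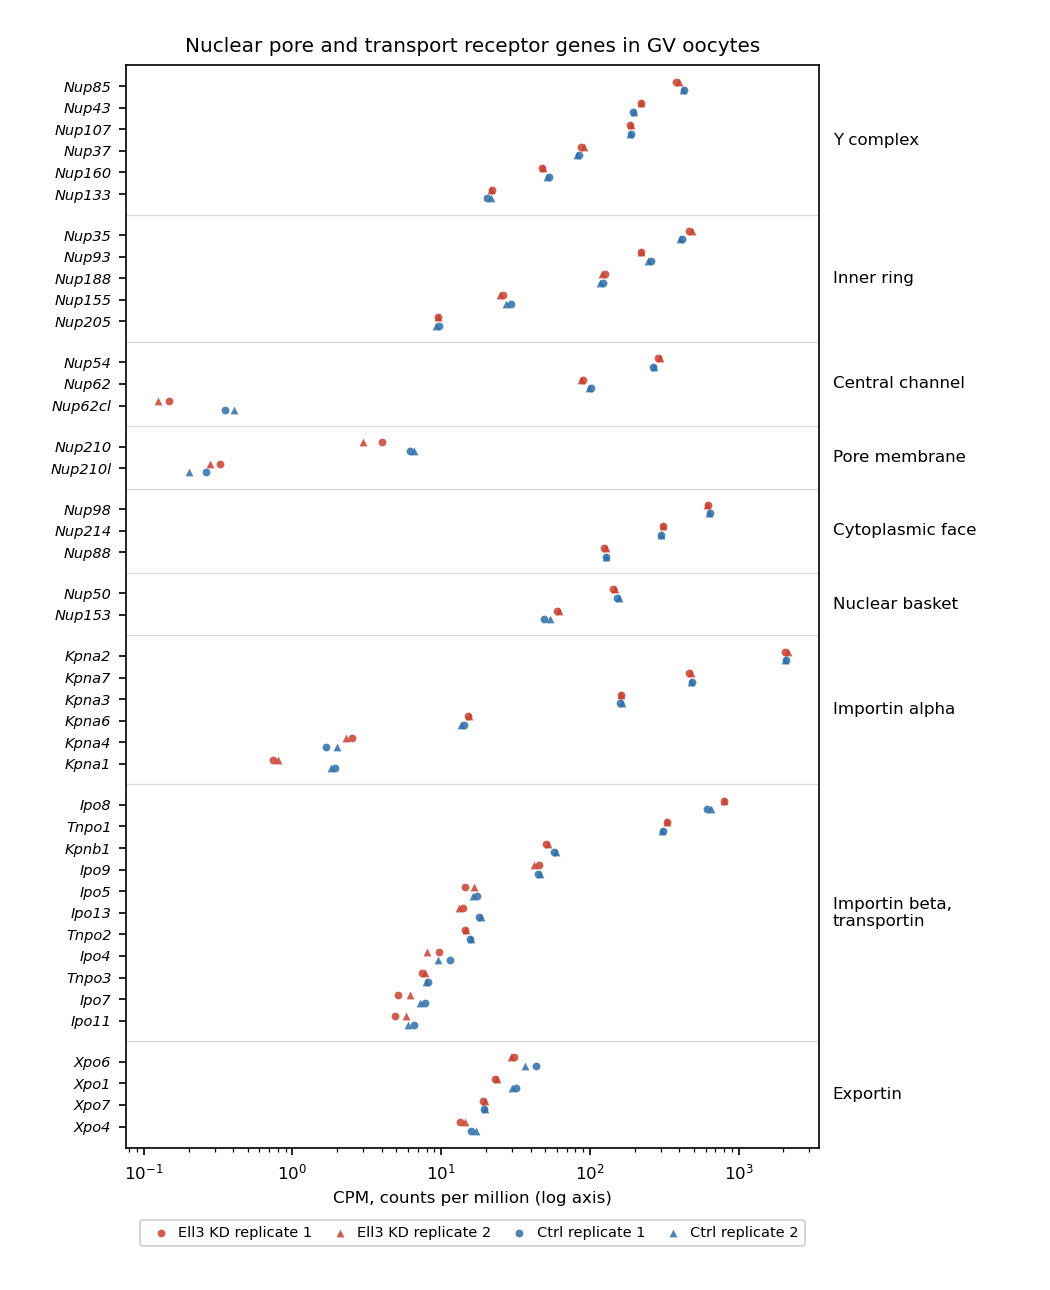
Level of each of the 42 members in CPM (log axis) in the 2 Ell3 KD libraries (red, upper) and the 2 Ctrl libraries (blue, lower), grouped by place in the pore or by receptor family; circles are replicate 1 and triangles replicate 2. Kpna2 stands highest, at 2046 to 2135 CPM over the 4 libraries, and the groups separate visibly for Kpna1, Nup210, Nup62cl, Ipo8 and the exportins Xpo1 and Xpo6.

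In the Y complex, the scaffold that also seeds pore assembly, 1 of 6 members rose and 1 fell, against 21.1% and 21.8% of all genes tested. Nup43 had 222.0 and 221.4 CPM in Ell3 KD against 196.6 and 197.0 CPM in Ctrl (log2 fold change 0.17 ± 0.034, SE; edgeR adjusted p = 1.80e-04). Its partner Nup85, the highest of the complex per kilobase, had 382.3 and 399.1 CPM in Ell3 KD against 431.3 and 424.3 CPM in Ctrl (-0.13 ± 0.032; edgeR adjusted p = 0.00152). Both groups were separate for these genes, in opposite directions, but the fall of Nup85 was not called without Ell3 KD replicate 1 (edgeR adjusted p = 0.0743). Nup107, the core scaffold subunit, stood at 187.1 and 190.5 CPM in Ell3 KD and at 189.2 and 185.7 CPM in Ctrl, with a 95% interval of the log2 fold change from -0.06 to 0.08. Nup37, Nup133 and Nup160 had log2 fold changes of 0.10, 0.06 and -0.12 and were not called (edgeR adjusted p = 0.0611, 0.536 and 0.0546).

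The inner ring, which anchors the channel to the membrane, also had a member on each side. Nup35, whose protein binds the pore membrane, had 465.8 and 485.7 CPM in Ell3 KD against 416.2 and 404.2 CPM in Ctrl (log2 fold change 0.21 ± 0.032, SE; edgeR adjusted p = 5.76e-06). Nup93, the linker of the ring, had 222.4 and 221.0 CPM in Ell3 KD against 256.3 and 244.6 CPM in Ctrl (-0.18 ± 0.034; edgeR adjusted p = 1.73e-04). Every Ell3 KD library was above both Ctrl libraries for Nup35 and below both for Nup93. The large scaffold genes Nup155, Nup188 and Nup205 had log2 fold changes of -0.15, 0.05 and 0.0083 and were not called (edgeR adjusted p = 0.0606, 0.316 and 0.958).

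Nup54 and Nup62 encode partners in the complex that lines the central channel, and their counts moved apart. Nup54 had 285.5 and 294.2 CPM in Ell3 KD against 267.0 and 270.7 CPM in Ctrl (log2 fold change 0.11 ± 0.033, SE; edgeR adjusted p = 0.00892), a rise not called without Ell3 KD replicate 2 (edgeR adjusted p = 0.116). Nup62 had 90.2 and 86.7 CPM in Ell3 KD against 102.2 and 98.8 CPM in Ctrl (-0.18 ± 0.041; edgeR adjusted p = 8.16e-04). With a fitted trend on length and GC content taken out, the fall of Nup62 was -0.09 and was not called (edgeR adjusted p = 0.0541). The ratio of Nup54 to Nup62 counts was 3.16 and 3.40 in Ell3 KD and 2.61 and 2.74 in Ctrl, a comparison chosen after the values were seen. An exact two-sided permutation test of 2 against 2 libraries cannot go below p = 0.333, the value found for this ratio. The X-linked relative Nup62cl had only 13 and 8 counts in Ell3 KD against 16 and 20 in Ctrl (log2 fold change -1.46 ± 0.60; edgeR adjusted p = 0.0496). That call was lost in 10 of the 14 alternatives that gave it a value, among them each setting without one library and the thinning of all libraries to one depth (-0.91; edgeR adjusted p = 0.196).

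At the faces of the pore the abundant genes stayed near their control levels. Nup98, a repeat nucleoporin that binds mRNA export factors, had 620.0 and 618.4 CPM in Ell3 KD and 645.5 and 629.1 CPM in Ctrl, a log2 fold change of -0.04 with a 95% interval from -0.10 to 0.02. Nup214 and Nup88, the cytoplasmic pair that docks Xpo1, had log2 fold changes of 0.05 and -0.02 (edgeR adjusted p = 0.239 and 0.665). Of these, Nup214 was called higher with the length and GC trend removed (0.17; edgeR adjusted p = 9.49e-05), as was Nup188 of the inner ring (0.17; edgeR adjusted p = 7.81e-04). In the nuclear basket, Nup153 had 60.4 and 62.4 CPM in Ell3 KD against 49.1 and 53.6 CPM in Ctrl (log2 fold change 0.26 ± 0.050, SE; edgeR adjusted p = 1.83e-04), and the groups were separate. Nup50, which helps take importin alpha off its cargo, had a log2 fold change of -0.09 that narrowly missed the threshold (edgeR adjusted p = 0.0510).

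Nup210, a membrane-spanning glycoprotein of the pore, showed one of the 2 largest falls among members called with more than 50 counts in each library. It had 3.97 and 2.97 CPM in Ell3 KD (352 and 192 counts) against 6.17 and 6.54 CPM in Ctrl (282 and 323 counts). This is a log2 fold change of -0.86 ± 0.15 (SE; edgeR adjusted p = 5.01e-05), with a 95% interval from -1.17 to -0.55. The other was Kpna1, an importin alpha, at 0.745 and 0.804 CPM in Ell3 KD (66 and 52 counts) against 1.93 and 1.80 CPM in Ctrl (88 and 89 counts). Kpna1 had a log2 fold change of -1.27 ± 0.28 (SE; edgeR adjusted p = 5.80e-04), with a 95% interval from -1.84 to -0.70. Both genes remained called in all 15 alternatives, including an assumed coefficient of variation of 0.2. Cd68, a macrophage marker of the blood list, was also lower, at 1.23 and 1.13 CPM in Ell3 KD against 2.43 and 2.86 CPM in Ctrl (log2 fold change -1.16 ± 0.23; edgeR adjusted p = 2.18e-04). Ptprc, of the same list, had 12 and 5 counts in Ell3 KD and 7 and 6 in Ctrl, and the other 4 genes of the list were at 0. What part cells other than oocytes had in the falls of Nup210 and Kpna1 was not tested. On GRCm38, Nup210 (minus strand) spans 91013068 to 91116829 of chromosome 6 and Kpna1 (plus strand) spans 35978750 to 36037131 of chromosome 16, neither with exons shared with another annotated gene.

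**Figure D2:**
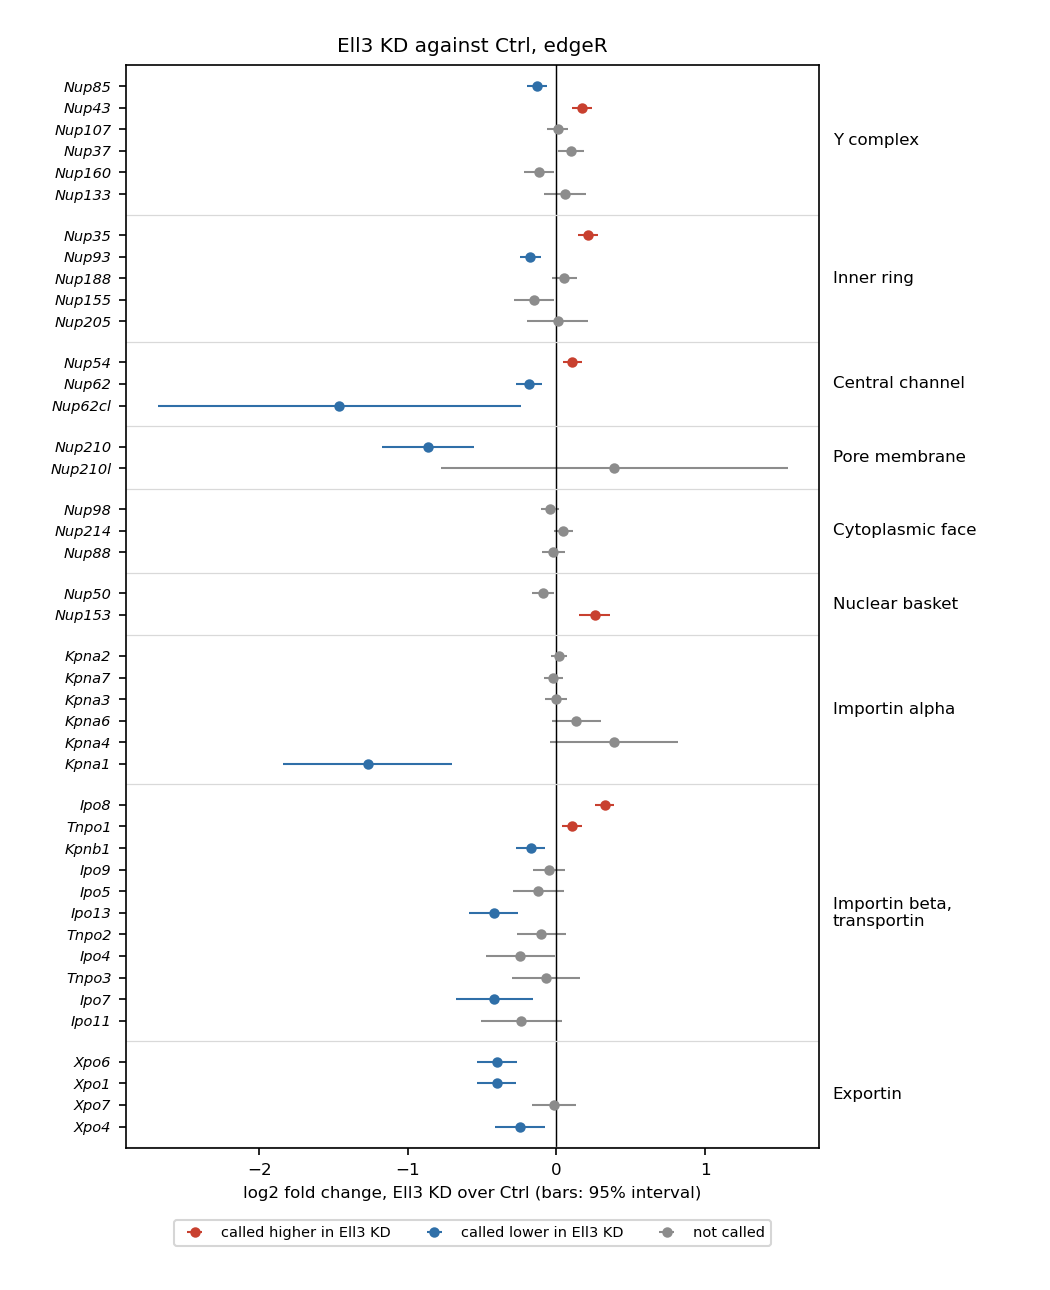
Log2 fold change of each member in Ell3 KD over Ctrl from edgeR with its 95% interval (bars), by place in the pore or by receptor family; red members were called higher, blue lower and grey not called. The widest intervals belong to Nup62cl and Nup210l, the members with the lowest levels, and 38 of the 42 intervals lie within a 2-fold change either way.

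Importin alpha counts came almost wholly from Kpna2 and Kpna7, the second of which is known as an importin alpha of oocytes and early embryos. Kpna2 had 2046 and 2135 CPM in Ell3 KD and 2075 and 2060 CPM in Ctrl, with a log2 fold change of 0.016 ± 0.027 (SE) and a 95% interval from -0.04 to 0.07. Kpna7 had 467.9 and 481.3 CPM in Ell3 KD and 483.9 and 478.3 CPM in Ctrl, with a log2 fold change of -0.02 ± 0.030 and an interval from -0.08 to 0.04. For both genes the groups overlapped, and the intervals do not reach a change of 1.25-fold, the size of the rise of Ipo8. These intervals rest on the small spread between the 4 libraries, which may be technical. They also borrow from the spread of other genes, with 26.3 degrees of freedom in all (median over genes). Scaled for transcript length, Kpna2 made up 81.0% and 81.3% of importin alpha in Ell3 KD against 80.8% in each Ctrl library. Kpna7 made up 15.5% and 15.3% in Ell3 KD against 15.8% and 15.7% in Ctrl. Both shares differed by under 1 percentage point (0.337 and -0.316, Ell3 KD minus Ctrl; exact two-sided permutation p = 0.333 for each, the smallest that 2 against 2 libraries allow). The pseudogene symbol Kpna2-ps had no count in any library. Med20, read from the other strand, overlaps 100% of its exon length, and strand and multi-mapping settings are not stated. The lack of counts therefore does not show whether pseudogene reads were present. Kpna2 lies on chromosome 11 from 106988629 to 106999541 and Kpna7 on chromosome 5 from 144983519 to 145084030 of GRCm38.

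Of the remaining importin alpha genes, Kpna3 was steady at 161.6 and 162.0 CPM in Ell3 KD and 160.0 and 164.2 CPM in Ctrl. Kpna6 and Kpna4 had log2 fold changes of 0.13 and 0.39 that were not called (edgeR adjusted p = 0.189 and 0.141), with both Ell3 KD libraries above both Ctrl libraries. Kpna6 was called higher with the length and GC trend removed (0.21; edgeR adjusted p = 0.0335). Kpna1, the importin alpha called without that correction, made up 0.0120% and 0.0125% of the length-scaled importin alpha level in Ell3 KD against 0.0306% and 0.0288% in Ctrl.

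Among the importin beta and transportin genes, 2 of 11 rose and 3 fell, against 21.1% and 21.8% of all genes tested. Ipo8, an importin that in mammalian cells also binds Argonaute proteins and SMAD cargo, was the most abundant of the family and the member with the smallest p. It had 798.3 and 793.4 CPM in Ell3 KD against 613.5 and 657.8 CPM in Ctrl, a log2 fold change of 0.32 ± 0.032 (SE; edgeR adjusted p = 8.83e-09). Both Ell3 KD libraries lay above both Ctrl libraries, and over the alternatives the log2 fold change ran from 0.27 to 0.37, called in all but the one with an assumed coefficient of variation of 0.2 (edgeR adjusted p = 0.705). Its close relative Ipo7 stood far lower and went the other way, with 5.14 and 6.19 CPM in Ell3 KD against 7.81 and 7.25 CPM in Ctrl (-0.42 ± 0.13; edgeR adjusted p = 0.00957). The ratio of Ipo8 to Ipo7 counts was 155 and 128 in Ell3 KD and 78.5 and 90.7 in Ctrl, a pair chosen after its values were seen. The fall of Ipo7 was not called by DESeq2 (adjusted p = 0.0709) or without Ell3 KD replicate 1 (edgeR adjusted p = 0.171).

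Kpnb1, the importin beta that works with importin alpha, had 50.9 and 52.0 CPM in Ell3 KD against 57.0 and 59.1 CPM in Ctrl (log2 fold change -0.17 ± 0.048, SE; edgeR adjusted p = 0.00462). Without Ell3 KD replicate 1 that fall was not called (edgeR adjusted p = 0.0661), nor with the length and GC trend removed (-0.11; edgeR adjusted p = 0.0561). Ipo13, which carries cargo in both directions, had 14.1 and 13.1 CPM in Ell3 KD against 17.9 and 18.5 CPM in Ctrl (-0.42 ± 0.080; edgeR adjusted p = 1.31e-04). Tnpo1, the receptor for hnRNP proteins, had 332.6 and 328.1 CPM in Ell3 KD against 310.4 and 303.6 CPM in Ctrl (0.11 ± 0.032; edgeR adjusted p = 0.00844). This rise was not called without Ctrl replicate 2 (edgeR adjusted p = 0.0555) or without Ell3 KD replicate 1 (edgeR adjusted p = 0.0801). Tnpo2 and Tnpo3, which carries SR splicing factors, had log2 fold changes of -0.10 and -0.07 and were not called (edgeR adjusted p = 0.316 and 0.647). Ipo4, Ipo5, Ipo9 and Ipo11 were not called either, with log2 fold changes between -0.24 and -0.05 (edgeR adjusted p between 0.0844 and 0.462). Exons of Ipo4 share 55.3% of their length with Gm49378, so its counts are less certain. Without Ctrl replicate 2, or without Ell3 KD replicate 1, Ipo4 was called lower (edgeR adjusted p = 0.00813 and 0.0239).

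The family as a whole was carried by Ipo8. Summed over its 11 genes the level was 1297 and 1288 CPM in Ell3 KD against 1110 and 1148 CPM in Ctrl. Without Ipo8 the sums were 499.1 and 494.5 CPM in Ell3 KD and 496.9 and 490.1 CPM in Ctrl, so that the groups overlapped. This remainder was not flat gene by gene. Tnpo1, its largest part, was higher in Ell3 KD (332.6 and 328.1 CPM against 310.4 and 303.6 CPM in Ctrl). Every other gene in it had a negative log2 fold change, from -0.42 for Ipo13 to -0.05 for Ipo9, and 3 of these were called lower. Scaled for length, Ipo8 made up 64.9% of the family in each Ell3 KD library against 58.1% and 60.1% in the Ctrl libraries (exact two-sided permutation p = 0.333, the smallest possible). The share of Tnpo1 was 19.4% and 19.2% in Ell3 KD against 21.0% and 19.9% in Ctrl, although its own level was higher in Ell3 KD, and that of Kpnb1 was 4.25% and 4.37% against 5.54% in each Ctrl library.

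**Figure D3:**
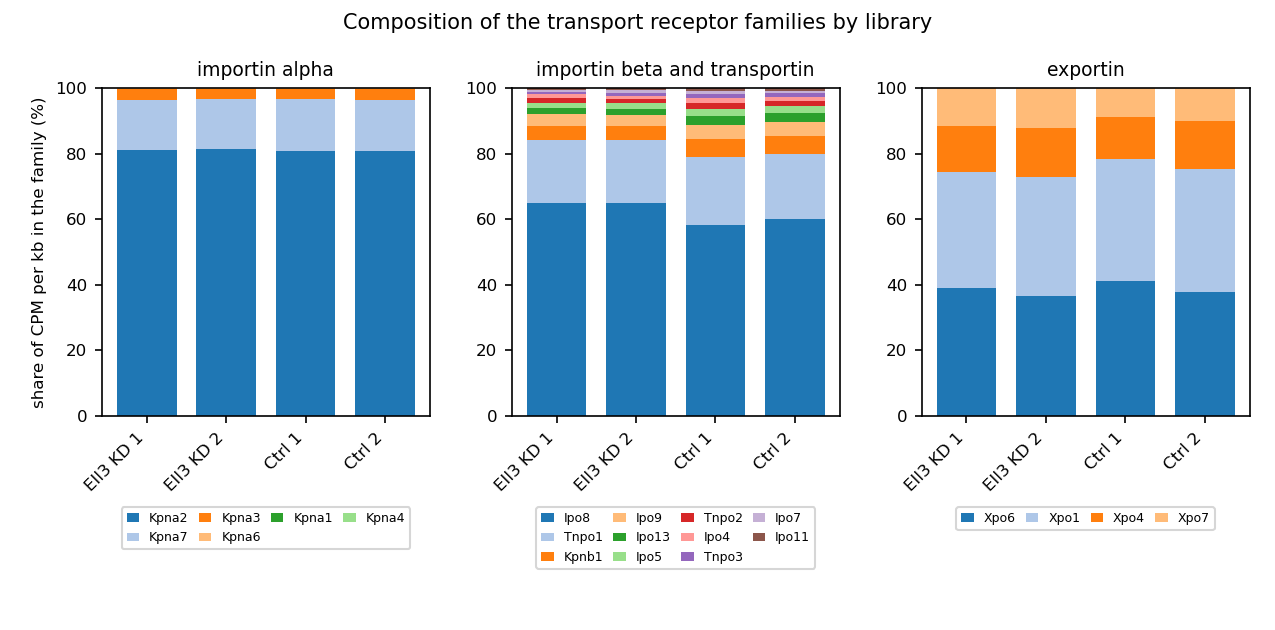
Share of each gene in the length-scaled level (CPM per kb) of its receptor family, in percent, with 1 stacked bar per library and the Ell3 KD libraries left of the Ctrl libraries. Kpna2 fills about the same 81% of importin alpha in every library, and Ipo8 takes a larger part of the importin beta and transportin family in Ell3 KD (64.9%) than in Ctrl (58.1% and 60.1%).

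Among the exportin genes 3 of 4 were called lower in Ell3 KD, where 21.8% of all genes tested were, and Xpo4 was the least secure of these calls. Xpo1 (CRM1), the exportin for proteins with leucine-rich export signals, had 23.1 and 23.8 CPM in Ell3 KD against 32.0 and 29.9 CPM in Ctrl (log2 fold change -0.40 ± 0.064, SE; edgeR adjusted p = 1.34e-05). Xpo6, which takes actin with profilin out of the nucleus and is known from Xenopus oocytes for its near absence there, had 31.0 and 29.3 CPM in Ell3 KD against 43.2 and 36.6 CPM in Ctrl (-0.40 ± 0.066; edgeR adjusted p = 2.14e-05). Both genes were called in all alternatives other than the assumed coefficient of variation of 0.2 (edgeR adjusted p = 0.565 and 0.559). Xpo4, an exportin of translation factor eIF5A, had 13.4 and 14.4 CPM in Ell3 KD against 15.9 and 17.1 CPM in Ctrl (-0.25 ± 0.082; edgeR adjusted p = 0.0173). The fall of Xpo4 was not called without Ctrl replicate 2 (edgeR adjusted p = 0.118), without Ell3 KD replicate 1 (edgeR adjusted p = 0.175) or by DESeq2. Xpo7, with broad cargo, had 19.0 and 19.8 CPM in Ell3 KD and 19.4 and 19.8 CPM in Ctrl, a log2 fold change of -0.018 with a 95% interval from -0.17 to 0.13. The summed level of these 4 exportin genes was 86.6 and 87.3 CPM in Ell3 KD against 110.6 and 103.4 CPM in Ctrl, a ratio of 0.812 (exact two-sided permutation p = 0.333, the smallest possible). Xpo1 lies on chromosome 11 from 23256041 to 23298249, Xpo6 on chromosome 7 from 126101715 to 126200501 and Ipo8 on chromosome 6 from 148770683 to 148831467 of GRCm38.

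The start-site windows of Ipo8, which rose, and of Xpo1 and Xpo6, which fell together, are shown to set these sequences side by side. They are RefSeq promoters on GRCm38.p6, 250 bases before to 50 bases after the start, read 5′ to 3′ on the gene's strand: chr6:148831418-148831717 (minus) for Ipo8, chr11:23255791-23256090 (plus) for Xpo1 and chr7:126200452-126200751 (minus) for Xpo6. Capitals mark matches on either strand to 6 motifs: the CCAAT box, the GC box GGGCGG, the ETS core CCGGAAG, the TATA box TATAAA, the E-box CACGTG and the NRF1 motif.
Ipo8: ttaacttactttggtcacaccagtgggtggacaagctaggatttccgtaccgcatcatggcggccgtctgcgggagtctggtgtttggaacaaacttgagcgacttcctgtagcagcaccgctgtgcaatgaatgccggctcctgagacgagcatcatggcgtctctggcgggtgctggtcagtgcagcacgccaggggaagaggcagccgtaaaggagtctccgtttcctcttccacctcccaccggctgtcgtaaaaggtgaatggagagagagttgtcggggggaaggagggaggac
Xpo1: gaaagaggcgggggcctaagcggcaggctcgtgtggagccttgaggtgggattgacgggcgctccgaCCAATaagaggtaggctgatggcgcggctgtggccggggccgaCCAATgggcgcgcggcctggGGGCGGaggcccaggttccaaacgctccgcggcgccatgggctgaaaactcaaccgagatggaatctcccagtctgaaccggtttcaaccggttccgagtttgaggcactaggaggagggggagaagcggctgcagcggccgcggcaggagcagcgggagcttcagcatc
Xpo6: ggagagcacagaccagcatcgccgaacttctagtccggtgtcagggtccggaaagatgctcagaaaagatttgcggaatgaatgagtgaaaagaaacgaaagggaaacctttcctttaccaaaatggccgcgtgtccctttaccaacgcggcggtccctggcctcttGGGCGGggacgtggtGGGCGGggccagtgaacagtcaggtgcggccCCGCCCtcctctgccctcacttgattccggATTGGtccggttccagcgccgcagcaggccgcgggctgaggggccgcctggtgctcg
The Ipo8 window holds none of these motifs. The Xpo1 window has CCAAT at 2 places and GGGCGG at 1, and the Xpo6 window has CCAAT at 1 place and GGGCGG at 3. Of the 42 members 33 matched a window; Kpna1, Kpna3, Kpna6, Nup35, Nup43, Nup85, Nup210l, Xpo4 and Xpo7 did not. CCAAT was in 60.6% of the 33 windows, against 37.4% of the 32851 windows of all genes, and GGGCGG in 66.7% against 35.7%. Among members called lower 8 of 9 windows held GGGCGG and 6 of 9 CCAAT, among those called higher 2 of 4 and 1 of 4, and among those not called 12 of 20 and 13 of 20. Overlapping matches were counted, a match describes the letters only, and these shares were not tested. The table of all genes holds several windows for some genes and non-coding genes too.

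Set against all genes tested, the members changed by small amounts. The median absolute log2 fold change was 0.13 for the 42 members, 0.25 for all 17879 genes tested and 0.16 for the 9704 genes at 5 CPM or more, a level that 37 members reached. The median log2 fold change was -0.046 over the members and -0.0024 over all genes tested. Of the members 14.3% were called higher and 28.6% lower, against 21.1% and 21.8% of all genes tested. Of 21 receptor genes 2 rose and 7 fell, and of 21 nucleoporin genes 4 rose and 5 fell; the difference between these classes was not tested. With the length and GC trend removed, 9 members were called higher and 10 lower, against 23.1% and 19.0% of all genes. The median log2 fold change was then -0.0019 over the members and 0.0170 over all genes tested. The members' longest transcripts had a median of 5354 bases, against 2826 for all genes tested. Both Ell3 KD libraries lay above both Ctrl libraries for 12 members and below both for 20, and the groups overlapped for 10, while 35.0% and 35.7% of all genes tested lay wholly above and below (70.7% in all). An absolute log2 fold change of at least 0.5 was reached by 3 members called (Kpna1, Nup210, Nup62cl), against 26.8% of all genes tested. That share is over genes at every level, those under 5 CPM included, and was not taken at a matched level. The members together took 0.743% and 0.753% of the counts in Ell3 KD and 0.751% and 0.748% in Ctrl.

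**Figure D4:**
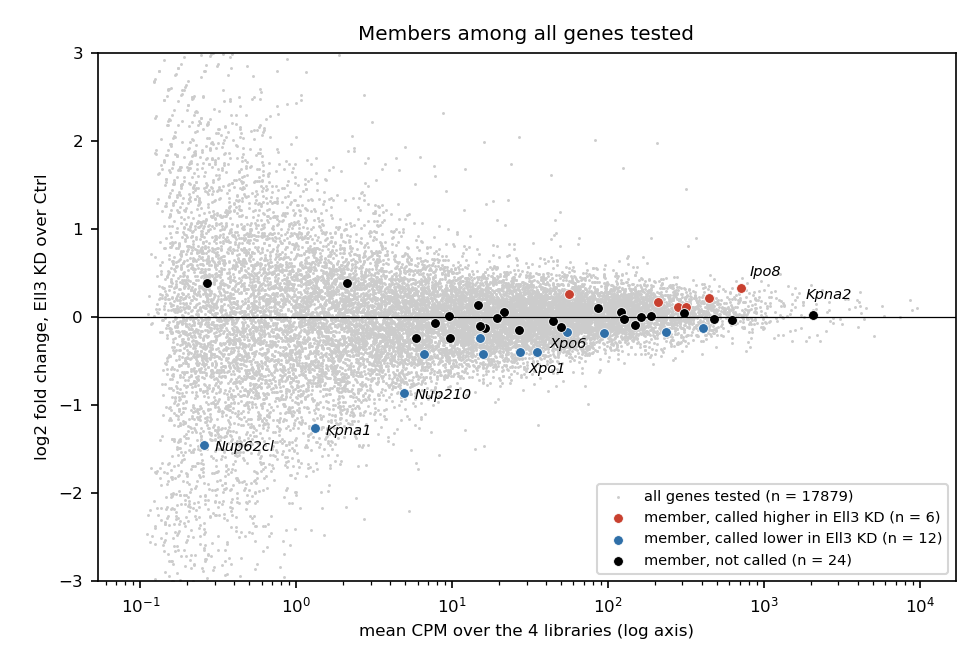
Log2 fold change in Ell3 KD over Ctrl against mean CPM over the 4 libraries (log axis) for all genes tested (grey) and for the 42 members (red called higher, blue called lower, black not called). The members lie inside the cloud of other genes. Kpna1, Nup210 and Nup62cl have the lowest log2 fold changes of the members, and other genes at levels near that of Nup62cl lie lower still. The 345 genes beyond a log2 fold change of 3 either way are not drawn.

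Other genes of the transport system, taken from lists chosen alongside the members, also went both ways, and the counts that follow stand against 21.1% of all genes tested called higher and 21.8% lower. Of 12 further pore proteins 2 rose and 4 fell. Pom121, which anchors the pore in the membrane, had the largest change of these 12, with 248.9 and 240.9 CPM in Ell3 KD against 130.2 and 134.0 CPM in Ctrl (log2 fold change 0.89 ± 0.036, SE; edgeR adjusted p = 1.41e-16). Nsun5, read from the other strand, overlaps 11.9% of the Pom121 exons. Ranbp2, singled out after its value was seen, rose by 0.17, and Rae1, Gle1, Nupl1 (the third partner of Nup54 and Nup62) and Nupl2, also singled out, fell by 0.16, 0.13, 0.19 and 0.37 on the log2 scale. The call of Gle1 was lost with the length and GC trend removed and without Ctrl replicate 1, and that of Nupl1 without Ell3 KD replicate 1 (edgeR adjusted p = 0.242, 0.0930 and 0.0646). Of the Nupl1 exons, 55.4% of the length is shared with other genes annotated on the same strand (Atp8a2, Gm49336 and Mir719). Of 6 Ran cycle genes tested 3 rose and 1 fell. The nucleotide exchange factor gene Rcc1 rose by 0.39 ± 0.073, Ranbp1 by 0.20 ± 0.041 and the Ran importer gene Nutf2 by 0.13 ± 0.043, and the GTPase-activating protein gene Rangap1 fell by 0.41 ± 0.094 on the log2 scale. Ran itself had 83.7 and 86.7 CPM in Ell3 KD and 79.6 and 89.5 CPM in Ctrl and was not called (edgeR adjusted p = 0.889). Cse1l, the exportin that returns importin alpha to the cytoplasm, fell by 0.21 ± 0.051, and Snupn, the adaptor for snRNP import, rose by 0.09 ± 0.033; these were the calls among 6 other receptors. Snupn was not called in any of the 4 settings without one library (edgeR adjusted p between 0.0518 and 0.125) or with the length and GC trend removed (edgeR adjusted p = 0.493). Nutf2 was not called with that trend removed (edgeR adjusted p = 0.802), by DESeq2 (adjusted p = 0.0575), without Ctrl replicate 1 (edgeR adjusted p = 0.202) or without Ell3 KD replicate 2 (edgeR adjusted p = 0.129). Cse1l was not called without Ell3 KD replicate 1 (edgeR adjusted p = 0.0921). Of 16 mRNA export genes 7 rose and 3 fell, with the paralogous helicase genes Ddx19a (0.43 ± 0.036) and Ddx19b (-0.55 ± 0.076) on opposite sides. Alyref had the largest change of these 16 (0.92 ± 0.14), at 7.04 and 8.89 CPM in Ell3 KD against 3.92 and 4.48 CPM in Ctrl. Of the mRNA export calls, those of Nxf1 (-0.11) and Nxt1 (0.12), the receptor pair for bulk mRNA, were lost with the length and GC trend removed (edgeR adjusted p = 0.632 and 0.208). Nxf1 was also not called without Ctrl replicate 1 or without either Ell3 KD library (edgeR adjusted p between 0.0667 and 0.121). Of 16 genes of the lamina and envelope 4 rose and 4 fell, among them Lmnb1 (0.97 ± 0.14) and Sun1 (-0.33 ± 0.044). With an assumed coefficient of variation of 0.2, many of these calls were lost. Rcc1, Ranbp1, Rangap1, Cse1l, Ddx19a, Ddx19b and Sun1 were among them (edgeR adjusted p between 0.307 and 0.891).

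**Figure D5:**
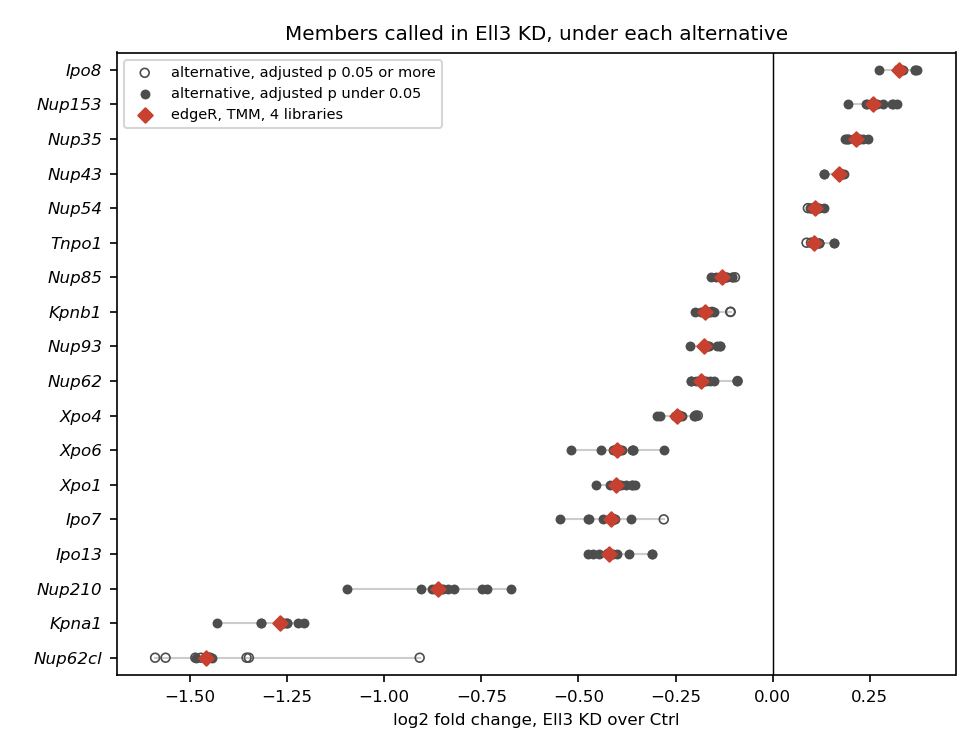
Log2 fold change in Ell3 KD over Ctrl of the 18 members called by edgeR (red diamonds) and under each of the other settings tried (grey, filled where the adjusted p was under 0.05, open where it was not). No called member changed sign in any of them, and Nup62cl has the most open points.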

How the data were processed

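Ell3 KD and Ctrl GV oocytes were profiled with Smart-seq2, 5 oocytes and 16 PCR cycles per library, per the labels' protocols. The authors deposited raw read counts per gene symbol, 1 file per library. HISAT2 2.2.1.0, featureCounts and mm10 are named, per the submitters' processing notes; settings for strand, multi-mapping and annotation are not stated there. The protocol has no molecular identifiers, so counts are reads and not independent molecules. Library totals set a floor of 3 counts at 0.0335 to 0.0665 CPM, which covers counting error only.

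Counts were tested in edgeR 4.0.16 (R 4.3.3): filterByExpr, TMM, glmQLFit and glmQLFTest with Benjamini-Hochberg adjustment over 17879 genes, called at 0.05. CPM use TMM-scaled totals. Each standard error was obtained from the F statistic (log2 fold change over its root), and 95% intervals use the degrees of freedom of the fit. The steps were tested on simulated data, with 50 genes changed at each of 4 sizes. They recovered 34.0% of 1.2-fold, 48.0% of 1.5-fold, 64.0% of 2-fold and 96.0% of 4-fold changes. Of the calls made there, 3.20% were false. Lengths, overlaps and positions are from GENCODE M21 (GRCm38). Alternatives were DESeq2 1.42.0, limma-voom (limma 3.58.1), RLE and upper-quartile scaling, no filter, at least 1 CPM, thinning, a replicate block, removal of the length and GC trend, an assumed coefficient of variation of 0.2 and leaving out each library. Named genes were Ell3, every member tested, and from each companion list the 2 most abundant and up to 4 called genes with the smallest p, and from each marker list the 2 most abundant. Members and lists were chosen with earlier results of these data known.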

Additional observations from a re-analysis of the deposited data

How the results depend on the processing

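Calls rest on 2 libraries per group whose replicates lie close together (common biological coefficient of variation 0.0421), so small differences passed. With that coefficient set to 0.2 for every gene, in a likelihood ratio test, 1964 genes were called. Of the members 0 were called higher and 3 lower (Kpna1, Nup210, Nup62cl), against 4.82% and 6.17% of all genes tested. This setting was not stricter for every gene. Nup62cl had an edgeR adjusted p of 0.0261 under it, against 0.0496 in the quasi-likelihood test. Leaving out each library in turn gave 5719 to 6921 genes, 5 to 6 members higher and 8 to 12 lower, and member medians from -0.0478 to -0.0315. With the length and GC trend removed the members' median was -0.0019, and -0.0020 with the replicate block as well. Over all genes tested the median was 0.0170 and 0.0176 under these settings. Depth limits Nup62cl and Nup210l most.

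Replicate numbers are shared by label only, and deviations of same-numbered libraries correlated at 0.0294, so nothing shows that numbers pair the samples. A replicate block called 7 members higher and 15 lower, against 21.8% and 22.3% of all genes tested. Of these members 6 and 11 were also called without the block.

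Over 15 alternatives, 542 of 628 member values kept direction and call, 38 lost the call, 21 gained it and 27 changed sign, all of these near 0 and not called. Sign changes were Kpna3 0.0021 and Zp3 0.0008 with DESeq2, Kpna3 0.0008 with RLE, Kpna3 0.0046 and Zp3 0.0034 with upper-quartile scaling, Kpna3 0.0095 and Zp3 0.0081 without the filter, and Nup205 -0.0106 and Kitl -0.0049 after thinning. With the length and GC trend removed, and then with the block as well, they were Ipo9 0.0315 and 0.0303, Kpna2 -0.0049 and -0.0050, Kpna3 0.0010 and 0.0009, Kpna7 0.0066 and 0.0065, Nup98 0.0217 and 0.0218, Tnpo2 0.0185 and 0.0199, Xpo7 0.0383 and 0.0392, Ranbp3 0.0674 and 0.0672, and Padi6 0.0257 in both. Without one library the ranges that crossed 0 were Kpna3 -0.0231 to 0.0131, Nup107 -0.0061 to 0.0259, Nup205 -0.0276 to 0.0397, Kitl -0.0181 to 0.0518, Kpna7 -0.0359 to 0.0034, Nup88 -0.0371 to 0.0001, Xpo7 -0.0426 to 0.0155, Kpna2 -0.0109 to 0.0489 and Zp3 -0.0088 to 0.0074. The cause of these changes was not tested.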
